A study of Mus musculus with 8 samples.

Results

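The mouse genes with symbols of the form Zfp9xx, from Zfp930 to Zfp995, were examined in single cells of the embryonic kidney. They were selected by symbol alone, but with earlier results of these data known, and 61 of the 32285 genes of the deposited matrix met the rule. The cells used came from 1 pool and from the kidneys of 2 Trim28Δ/Δ and 2 Trim28f/f male embryos. Their age was embryonic day 17.5 by the sample labels and a day later by the study's methods. A further 4508 cells of the pool carried tags with no named mouse and were not used. Both genotypes carry the conditional Trim28 allele, with loxP sites in introns, and the Trim28Δ/Δ embryos carry in addition the Six2-cre transgene, which is active in nephron progenitors, so that the floxed segment is removed in the nephron lineage (progenitors and the tubule and podocyte cells they form) and not in the ureteric, stromal, endothelial and blood cells of the same kidneys. The list of tags that marks the cells of each embryo names the genotypes ko and wt, which are called Trim28Δ/Δ and Trim28f/f here. The mouse was the unit of replication (n = 2 per genotype), and p-values measure the spread between these mice only.

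Genes of this name encode proteins with arrays of C2H2 zinc fingers, and many of them also carry a KRAB domain. A KRAB zinc finger protein binds DNA through its fingers and recruits TRIM28 through its KRAB domain, and TRIM28 in turn brings the histone methyltransferase SETDB1, heterochromatin proteins and deacetylases to the bound site. Many targets are transposable elements, and the family is arranged in clusters of recently duplicated genes, of which the distal end of chromosome 4 holds a large one.

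On the GRCm38 annotation (GENCODE M21), members whose starts lay less than 1000000 bases apart formed 5 groups of at least 3. The chromosome 4 group held 16 members between 145510759 and 147848366 (Zfp933, Zfp978 to Zfp982 and Zfp984 to Zfp993), the groups on chromosomes 2 and 17 held 10 each, those on chromosomes 7 and 8 held 4 and 3, and the other 18 members stood alone. RefSeq windows of sequence around the start site (GRCm38.p6) were found for 51 members. The 250 bases upstream of Zfp985, a member whose level differed between the genotypes, were 83.8% identical to those of Zfp987, 81.9% to Zfp982, 81.2% to Zfp979, 79.6% to Zfp980, 71.9% to Zfp988, 69.5% to Zfp981 and 68.1% to Zfp984, but 48.8% to Zfp933 and 47.2% to Zfp993, the remaining members of the group with a window. The last 150 bases before the start are shown for 4 of them, 5′ to 3′ on the strand of the gene, because they show how alike the starts of neighbouring members are. The positions are chr4:147553127-147553276 (plus strand), chr4:147492267-147492416 (plus strand), chr4:147642509-147642658 (minus strand) and chr4:147809789-147809938 (minus strand), and capitals mark TATTGGGCG, the longest run that these 150 bases had in common in the 8 alike members.
Zfp985: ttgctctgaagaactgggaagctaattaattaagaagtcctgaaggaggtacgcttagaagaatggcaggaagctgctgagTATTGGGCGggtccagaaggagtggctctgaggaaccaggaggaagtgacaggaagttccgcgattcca
Zfp982: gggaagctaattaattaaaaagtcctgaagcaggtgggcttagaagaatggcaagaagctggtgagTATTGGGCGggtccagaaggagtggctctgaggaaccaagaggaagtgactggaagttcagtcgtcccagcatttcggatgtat
Zfp979: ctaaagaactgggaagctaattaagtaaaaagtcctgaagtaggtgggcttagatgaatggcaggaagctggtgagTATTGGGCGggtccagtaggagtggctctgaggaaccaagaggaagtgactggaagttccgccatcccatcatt
Zfp984: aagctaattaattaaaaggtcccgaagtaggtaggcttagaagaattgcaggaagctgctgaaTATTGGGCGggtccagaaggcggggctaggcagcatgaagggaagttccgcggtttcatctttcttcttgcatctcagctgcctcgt
The run, searched on both strands, was present in 10 of the 51 members with a window, among them 8 of the 10 of the chromosome 4 group, and in 0.113% of all 32851 RefSeq windows (37 windows). It was picked from these sequences, so its presence in them is a description.

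After the assignment of cells to mice, 7363 cells remained, from 1316 to 2749 per mouse, and the nephron lineage held 843 and 976 cells of the Trim28Δ/Δ mice and 1751 and 1276 cells of the Trim28f/f mice, with 18080593 to 36128171 UMIs (unique molecules counted) per mouse. Clusters were named after marker genes. In the lineage these were nephron progenitor (NPC-like), early proximal tubule (ErPT-like), proximal tubule (PT-like), loop of Henle (LOH-like), distal tubule (DT-like) and podocyte (Pod-like) cells. Outside it they were ureteric bud (UB-like), collecting duct (CD-like), stroma, mural, endothelial, immune and erythroid-like cells. Lineage clusters of 637, 436, 368 and 214 cells were left unnamed but counted in the lineage. Their best matches were, in this order, S-shaped body, renal vesicle, podocyte and early proximal tubule. Trim28 read 26.7 and 26.6 UMIs in 1000000 (CPM) in the lineage of the Trim28Δ/Δ mice and 108 and 130 CPM in that of the Trim28f/f mice (log2 change of -2.16 ± 0.14 SE, adjusted p = 0.00332, edgeR). In the other compartments it read 91.8 and 101 against 89.8 and 111 CPM (log2 change of -0.06 ± 0.16, adjusted p = 0.976). The library counts transcript 3′ ends, which lie outside the floxed segment, so these values do not read the deletion itself. Among lineage cells, 31.4% and 28.9% were PT-like in the Trim28Δ/Δ mice against 8.85% and 12.9% in the Trim28f/f mice, and 5.34% and 7.58% were NPC-like against 12.4% and 30.8%. A cluster of 172 cells outside the lineage, 171 of them from 1 Trim28f/f mouse, was left unnamed. It stayed in the sum of the other compartments. There it gave 171 of the 968 cells and 3771287 of the 16305160 UMIs of that mouse.

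Zfp9xx genes were expressed broadly and at low levels. The 61 members together made up 429 to 436 CPM of the lineage in the Trim28Δ/Δ mice and 351 to 382 CPM in the Trim28f/f mice. The 5 members with the most UMIs gave 34.1% of that sum, and 46 members had at least 100 UMIs over all compartments and mice. The leading members in the lineage were Zfp950, Zfp945, Zfp938, Zfp931 and Zfp942, followed by Zfp934, Zfp932, which represses endogenous retroviruses, Zfp992, Zfp961 and Zfp984. Zfp950 read 45.0 and 46.1 CPM in the Trim28Δ/Δ lineage and 34.0 and 41.5 CPM in the Trim28f/f lineage, and Zfp945 read 38.5 and 37.0 against 36.9 and 31.4 CPM. At the other end, Zfp969, Zfp978 and Zfp980 had no UMI in any compartment, and Zfp957 had none in the lineage.

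Of the 13 named classes, CD-like cells had the highest summed level and erythroid-like cells the lowest (mean over 4 mice of 466 and 134 CPM). Pod-like cells stood at 454 CPM, Stroma-like at 428, NPC-like at 425, ErPT-like at 422, LOH-like and DT-like at 421, UB-like at 415, Mural-like at 358, Endothelial-like at 349, PT-like at 341 and Immune-like cells at 304 CPM. Neighbours in this order overlapped between mice, except that each of the 4 erythroid values (84.9 to 166 CPM) lay below each value of every other class. The sum over members in free RNA of the whole pool (barcodes with 10 to 100 UMIs) was 306 CPM. This was above the erythroid values, within the range of the immune cells (262 to 350 CPM) and between the PT-like values of the Trim28f/f mice. Within the nephron lineage, PT-like cells were lowest in the Trim28f/f mice, at 308 and 279 CPM, and here the Trim28Δ/Δ mice read 390 and 387 CPM, 1.32 times as high.

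**Figure D1:**
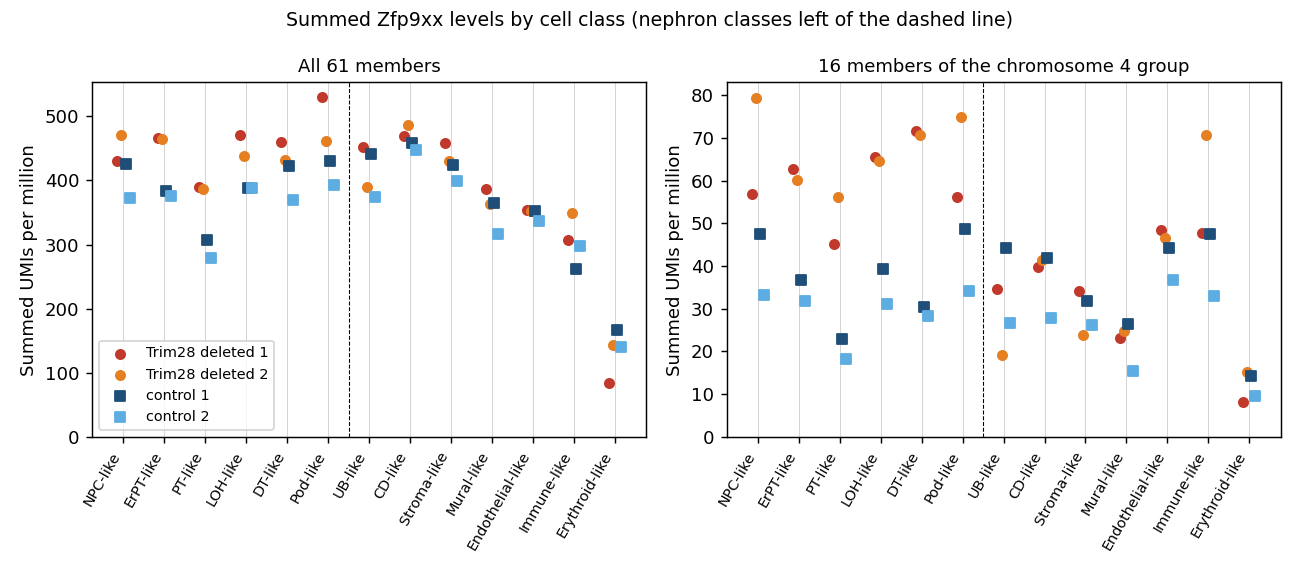
Summed level of all 61 members (left) and of the 16 members of the chromosome 4 group (right), in CPM, for each named cell class and mouse. In each of the 6 nephron classes both Trim28Δ/Δ mice (circles) lie above both Trim28f/f mice (squares) for the chromosome 4 group. That group was set apart after its values were known.

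By class, 1 member was set apart in every mouse. The share of all genes set apart in this way was not computed. Members with few or no UMIs per mouse in the small classes could hardly be set apart, so the count does not measure breadth. Zfp979 read 16.1 and 17.8 CPM in the endothelial-like cells of the Trim28Δ/Δ mice and 14.4 and 14.1 CPM in those of the Trim28f/f mice, while the highest value of any mouse in the other named classes was 7.72 CPM, in mural-like cells, and its median over the other classes was 0.40 CPM. Trim28 itself read 83.9 and 87.2 against 81.0 and 98.6 CPM in these cells. Among the named classes, Zfp948 was highest on average in stroma-like and mural-like cells (25.4 and 23.6 CPM, beside a median of 10.2 CPM over the classes other than stroma), but its mice overlapped between these classes, and an unnamed cluster led by Pdgfrb and Ebf1 read 28.1 and 33.8 against 34.2 and 28.5 CPM. Zfp950 read 72.4 CPM in CD-like and 72.3 CPM in stroma-like cells, and 12.5 CPM in erythroid-like cells.

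Loss of Trim28 in the nephron lineage was accompanied by higher levels of 3 members, Zfp934, Zfp985 and Zfp992, and by a lower level of none. UMIs of each mouse were summed and all genes entered edgeR's quasi-likelihood test, whose p-values were adjusted by the Benjamini-Hochberg method. Of the 61 members 49 passed the filter on low counts, 1 of them (Zfp990) only through the Trim28Δ/Δ mice, and 3 of these 49 (6.12%) were called at an adjusted p below 0.05, against 4.03% of all 15453 genes tested. For changes upwards the background was 2.96%, and for changes downwards 1.06%. With 49 members tested, the counts called lay not far from these shares and are not read as a result about the set. Leaving out the first or second Trim28Δ/Δ mouse left no member called, in fits that called 0.705% and 0.999% of all genes. Leaving out the first or second Trim28f/f mouse gave 11 and 13 called (22% and 26% of those tested), in fits that called 25% and 33.7% of all genes. A sum without PT-like cells also left none, beside 0.36% of all genes. Zfp934 (chr13:62479827-62571199) read 20.9 and 20.5 CPM in the Trim28Δ/Δ mice and 9.46 and 10.0 CPM in the Trim28f/f mice (378, 456, 341 and 274 UMIs). Both Trim28Δ/Δ mice lay above both controls, by a log2 change of 1.09 ± 0.14 (SE, adjusted p = 0.0225, a 2.12-fold difference). Zfp992 (chr4:146449023-146470292) read 18.7 and 21.3 CPM against 8.96 and 5.64 CPM, with no overlap between the genotypes (log2 change of 1.45 ± 0.24, adjusted p = 0.0332). Zfp985 (chr4:147553277-147585198), whose upstream sequence is shown above, was the rarest of the 3, with 53 and 46 UMIs in the Trim28Δ/Δ mice and 19 and 17 in the Trim28f/f mice. It read 2.93 and 2.06 against 0.53 and 0.62 CPM, a 4.32-fold difference (log2 change of 2.11 ± 0.34, adjusted p = 0.0319).

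Reads of recently duplicated genes can be shared between copies or lost. Of the 50-base stretches in the last 500 bases of its transcripts, Zfp992 shared 0% with another gene, Zfp985 21.6% (most with Gm13212) and Zfp934 30.3% (most with Zfp808). Zfp808 itself had 233 UMIs in the lineage and a log2 change of 0.19 ± 0.29 (adjusted p = 0.754). Gm13212, which lies inside the chromosome 4 group but does not bear a Zfp number, was called in the lineage too, with 8.96 and 8.17 CPM against 4.47 and 3.70 CPM (log2 change of 1.06 ± 0.20, adjusted p = 0.0444). Whether reads of the stretches that it shares with Zfp985 were lost or counted for either gene was not tested.

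**Figure D2:**
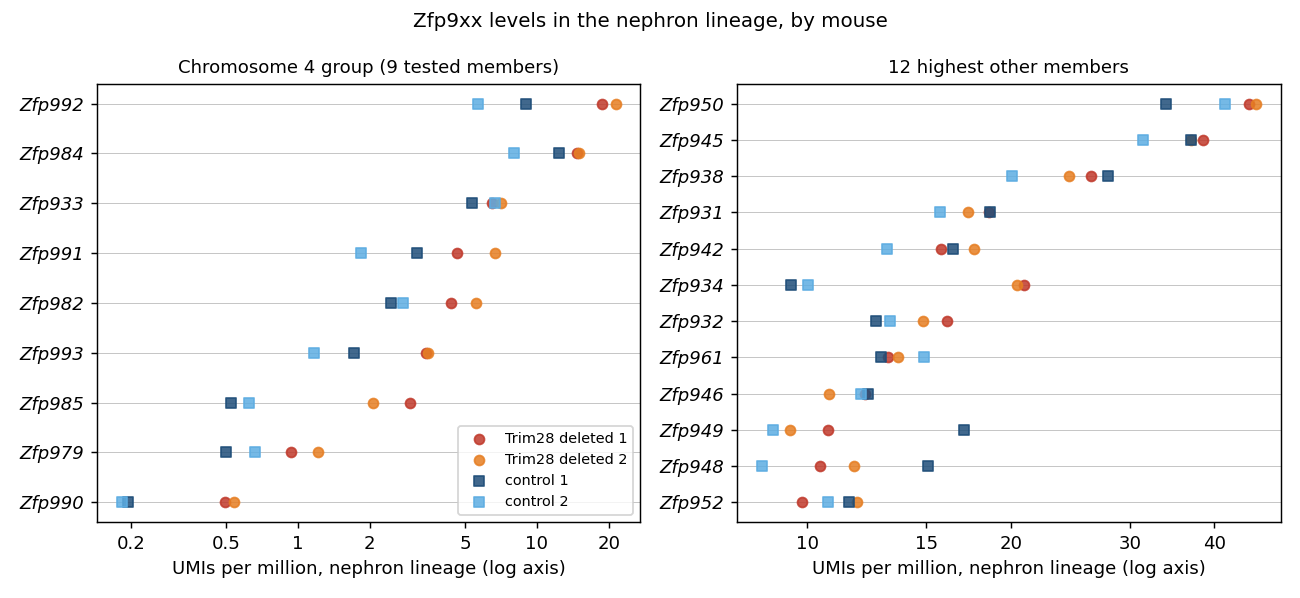
Level of single members in the nephron lineage, in CPM on a log axis, for each mouse: the 9 tested members of the chromosome 4 group (left) and the 12 highest other members (right). Circles (Trim28Δ/Δ) lie to the right of squares (Trim28f/f) for 8 of the 9 members on the left (Zfp990 among them, which passed the filter only through the Trim28Δ/Δ mice), and for Zfp934, Zfp950, Zfp945 and Zfp932 on the right.

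Of the 9 tested members of the chromosome 4 group Zfp985 and Zfp992 passed the threshold. The counts and medians that follow leave out Zfp990, which entered the test only through its level in the Trim28Δ/Δ mice. The median log2 change of the other 8 was 1.06 (0.17 for Zfp933 to 2.11 for Zfp985), beside 0.05 for the 40 tested members elsewhere and -0.02 for all genes tested. This is a description, since the group was set apart after its values were known. Among the 8, the genotypes did not overlap in 7, with Zfp933 the exception. Over 48 tested members they did not overlap, with Trim28Δ/Δ higher, in 21 (43.8%), beside 26.7% of all genes, and in none with Trim28Δ/Δ lower, beside 27.1%. Several of the group were rare. Zfp993 read 3.43 and 3.50 CPM against 1.72 and 1.17 CPM (log2 change of 1.25 ± 0.29, adjusted p = 0.0763), and Zfp991 read 4.64 and 6.69 against 3.16 and 1.83 CPM (1.17 ± 0.34, adjusted p = 0.121). Their 3′ ends are close copies, with 93.6% of the stretches of Zfp993 shared, most with Zfp991. How reads of the shared part were counted for this pair was not tested, and their values may not be separate. Zfp982, with 3.82% shared, read 4.37 and 5.56 against 2.44 and 2.75 CPM (log2 change of 0.94 ± 0.24, adjusted p = 0.0956). Zfp984, the second most abundant of the group, read 14.7 and 15.03 against 12.4 and 8.02 CPM (0.54 ± 0.23). Its value moved with the Trim28f/f mouse left out, to 0.89 (adjusted p = 6.41e-05) without the first and 0.26 (adjusted p = 0.125) without the second, in the fits that called 25% and 33.7% of all genes. Zfp933 had the smallest value, 6.47 and 7.05 against 5.35 and 6.70 CPM (0.17 ± 0.21). Zfp990 had 9 and 12 UMIs against 7 and 5.

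Summed over its 16 members, which needs no filter, the chromosome 4 group read 57.3 and 63.5 CPM in the Trim28Δ/Δ lineage and 35.3 and 27.7 CPM in the Trim28f/f lineage, 1.92 times as high. Without Zfp992 the sums were 38.6 and 42.2 against 26.4 and 22.1 CPM, so that the difference did not rest on that gene alone. The 45 other members together read 379 and 366 against 347 and 323 CPM, 1.11 times as high. The 7 untested members of the group had at most 8 UMIs each in any genotype's lineage, and 2 of them had none.

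**Figure D3:**
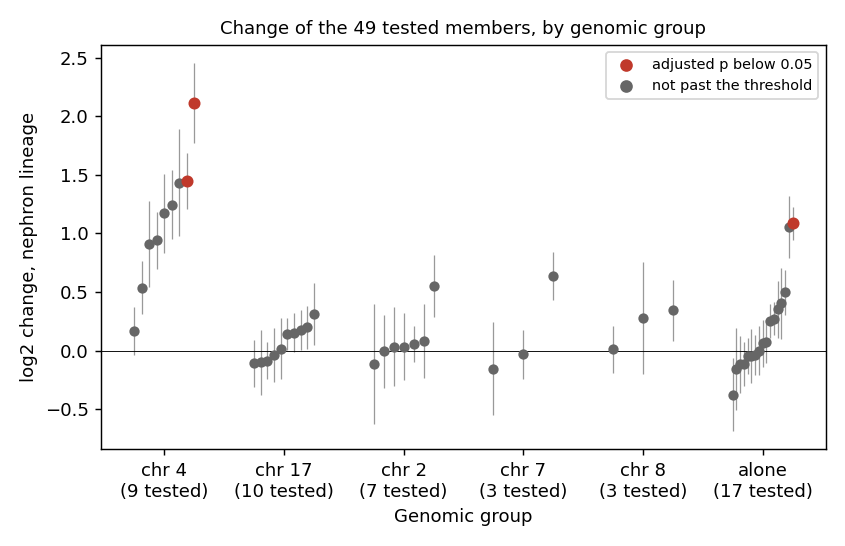
Log2 change (Trim28Δ/Δ over Trim28f/f, error bars show the SE) of each of the 49 tested members in the nephron lineage, arranged by genomic group. Red points passed the threshold. The chromosome 4 group spans 0.17 to 2.11, while the 10 members on chromosome 17 span -0.11 to 0.31.

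The members on chromosome 2 shared a median of 75.8% of 3′ stretches with other genes and were mostly rare. Of these, the 7 tested had a median log2 change of 0.04, and the largest belonged to Zfp968 (0.55 ± 0.27, 2.32 and 2.24 against 1.47 and 1.65 CPM). Whether the sharing bears on these values was not tested. The 10 members on chromosome 17, which include Zfp945, ranged from -0.11 to 0.31. Zfp951, which stood alone on chromosome 5, read 3.70 and 3.55 against 1.53 and 1.98 CPM (log2 change of 1.05 ± 0.27, adjusted p = 0.09), and Zfp976 of the chromosome 7 group read 12.7 and 10.9 against 6.55 and 8.72 CPM (0.63 ± 0.21, adjusted p = 0.157). Both Trim28Δ/Δ mice lay above both controls in each, and neither passed the threshold. These genes were chosen after their values were seen. The most abundant members other than Zfp934, Zfp992 and Zfp984 had smaller values. Zfp950 had a log2 change of 0.27 ± 0.14 and Zfp932 of 0.26 ± 0.15, with no overlap between the genotypes. Zfp945 (0.14 ± 0.14), Zfp942 (0.18 ± 0.17), Zfp938 (0.08 ± 0.18), Zfp931 (0.06 ± 0.15) and Zfp961 (-0.05 ± 0.16) differed by no more than about 1 SE. Leaving out 1 Trim28f/f mouse brought a pair of these past the threshold, Zfp950 without the second (0.42, adjusted p = 0.0021) and Zfp938 without the first (0.33, adjusted p = 0.034), again in those fits. Zfp949 had the lowest value of all, -0.37 ± 0.31, with 17.1 CPM in 1 Trim28f/f mouse and 8.90 to 10.7 CPM in the other 3 mice.

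In the other compartments, where Six2-cre is not active and Trim28 was level between the genotypes, no member was called of the 42 tested, by edgeR or DESeq2, where these called 0% and 0.233% of 14177 genes. None of the 42 had an unadjusted p below 0.05, beside 5.31% of all genes. Zfp992 read 7.87 and 10.8 CPM in the Trim28Δ/Δ mice and 10.3 and 6.51 CPM in the controls, and Zfp934 read 9.03 and 9.32 against 9.12 and 8.73 CPM. Both genes thus read lower in all 4 mice than in the Trim28Δ/Δ lineage. The chromosome 4 group summed to 39.4 and 36.8 against 35.9 and 26.4 CPM, 1.22 times as high. In the model with a term for compartment and genotype and the mouse as a block, the difference between the change in the lineage and that outside it passed the threshold for 1 member of 47 tested, Zfp992 (1.34 ± 0.20 on the log2 scale, adjusted p = 0.0498), against 0.658% of 16110 genes. Under 8 of the alternatives listed in the closing section, DESeq2 among them, it fell to the other side of the threshold. Zfp934 had a difference of 1.08 ± 0.19 (adjusted p = 0.06). Zfp985 had 10 and 6 UMIs against 6 and 2 outside the lineage, or 1.29 and 0.67 against 0.38 and 0.25 CPM. Both Trim28Δ/Δ mice thus lay above both controls there too, from few UMIs, and the gene did not pass the filter there on its own. Its difference in this model was 0.64 ± 0.70 (adjusted p = 0.701). That difference ran from -0.36 with equal cell numbers per cluster to 1.13 with mice assigned by the highest tag share, so that its direction was not settled.

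**Figure D4:**
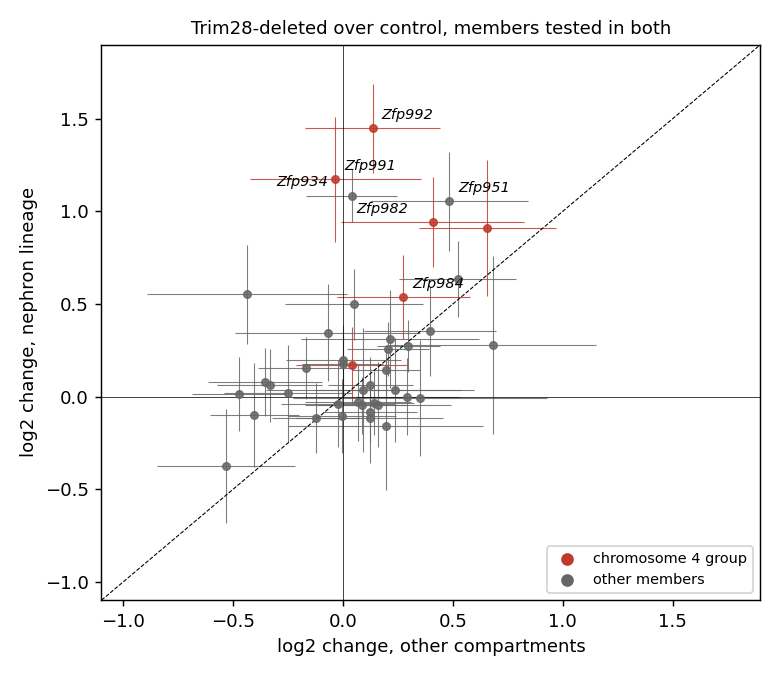
Log2 change (Trim28Δ/Δ over Trim28f/f, bars show the SE) in the nephron lineage against that in the other compartments for the 42 members tested in both, with the line of equal change dashed. Zfp992, Zfp991 and Zfp934 lie near 0 on the horizontal axis and above 1 on the vertical axis.

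Among single nephron classes, 2 members passed the threshold in at least 1. In PT-like cells these were Zfp992 and Zfp934, 2 of 39 tested (5.13%), against 0.445% of 12129 genes, or 0.371% for changes upwards. Zfp992 read 17.4 and 18.6 CPM in the Trim28Δ/Δ mice and 5.30 and 2.92 CPM in the Trim28f/f mice (log2 change of 2.15 ± 0.28, adjusted p = 0.0261), and Zfp934 read 21.8 and 20.4 against 5.79 and 6.26 CPM (1.80 ± 0.20, adjusted p = 0.0136). In ErPT-like cells Zfp934 was called, 1 of 32 tested against 0.424% of all genes, with 27.1 and 25.4 against 7.73 and 8.28 CPM (1.71 ± 0.26, adjusted p = 0.0253). Each of these 3 calls was lost without either Trim28Δ/Δ mouse (adjusted p of 0.0911 to 0.19) and under 1 other alternative, with adjusted p = 0.0588 for Zfp992 without Scrublet doublets, 0.0587 for Zfp934 in PT-like cells at a resolution of 1.2, and 0.051 for Zfp934 in ErPT-like cells with mice assigned by the highest tag share. No member was called of 32 tested in NPC-like cells, by edgeR or DESeq2, where these called 1.1% and 0.917% of all genes. In edgeR 5 members had an unadjusted p below 0.05, beside 9.59% of all genes. This class held only 45 and 74 cells of the Trim28Δ/Δ mice, beside 265 and 282 in PT-like cells. It includes a cluster of 377 cells whose marker score was 1.555 for NPC and 1.356 for renal vesicle. In NPC-like cells Zfp992 read 16.2 and 32.6 against 11.4 and 6.44 CPM (1.54 ± 0.41, adjusted p = 0.14), while Zfp934 read 13.2 and 20.4 against 13.2 and 11.6 CPM, so that its genotypes overlapped. In LOH-like cells Zfp992 read 19.4 and 20.1 against 8.34 and 6.67 CPM (1.37 ± 0.29, adjusted p = 0.192), and in DT-like cells 14.8 and 19.8 against 7.10 and 5.43 CPM (1.39 ± 0.43, adjusted p = 0.237). Whether the change of Zfp934 differed between NPC-like and PT-like cells was not tested. Zfp985 had 18 and 15 UMIs in PT-like cells of the Trim28Δ/Δ mice against 1 and 6, and at most 8 UMIs per mouse in any other nephron class. Both Trim28Δ/Δ mice exceeded both controls in 5 of the 6 nephron classes for Zfp992 and for Zfp985, with Pod-like cells (15 to 64 cells per mouse) the exception, and in 4 for Zfp934, with Pod-like and NPC-like cells the exceptions. The share of all genes with this pattern was 26.7% in the lineage sum and was not computed for single classes. These genes were named because they were called in that sum, of which the classes are parts, so their recurrence is a description.

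Further members separated the genotypes in 1 class or another without passing the threshold, and were picked after their values were seen. Zfp984 read 29.6 and 28.4 against 12.5 and 13.0 CPM in DT-like cells, its highest class (log2 change of 1.19 ± 0.32, adjusted p = 0.15), but 11.2 and 9.50 against 17.8 and 7.53 CPM in NPC-like cells, with overlap. Zfp951 had 11 and 11 UMIs against 4 and 2 in LOH-like cells (2.27 ± 0.63, adjusted p = 0.351). Zfp979, the member highest in endothelial-like cells, read 6.09 and 5.43 against 0.763 and 1.64 CPM in NPC-like cells, from 6, 8, 3 and 12 UMIs (2.11 ± 0.61, adjusted p = 0.187). Zfp982 read 5.71 and 6.86 against 1.89 and 1.59 CPM in ErPT-like cells (1.82 ± 0.47, adjusted p = 0.236) and 7.11 and 9.50 against 4.83 and 6.16 CPM in NPC-like cells, its highest named class. In an unnamed lineage cluster led by Pcp4 and Lsp1, Zfp982 read higher in the Trim28Δ/Δ mice than in any of these, 16.8 and 15.006 against 3.66 and 3.64 CPM. Counts of this size set a wide error, and most members could not be tested in Pod-like cells.

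**Figure D5:**
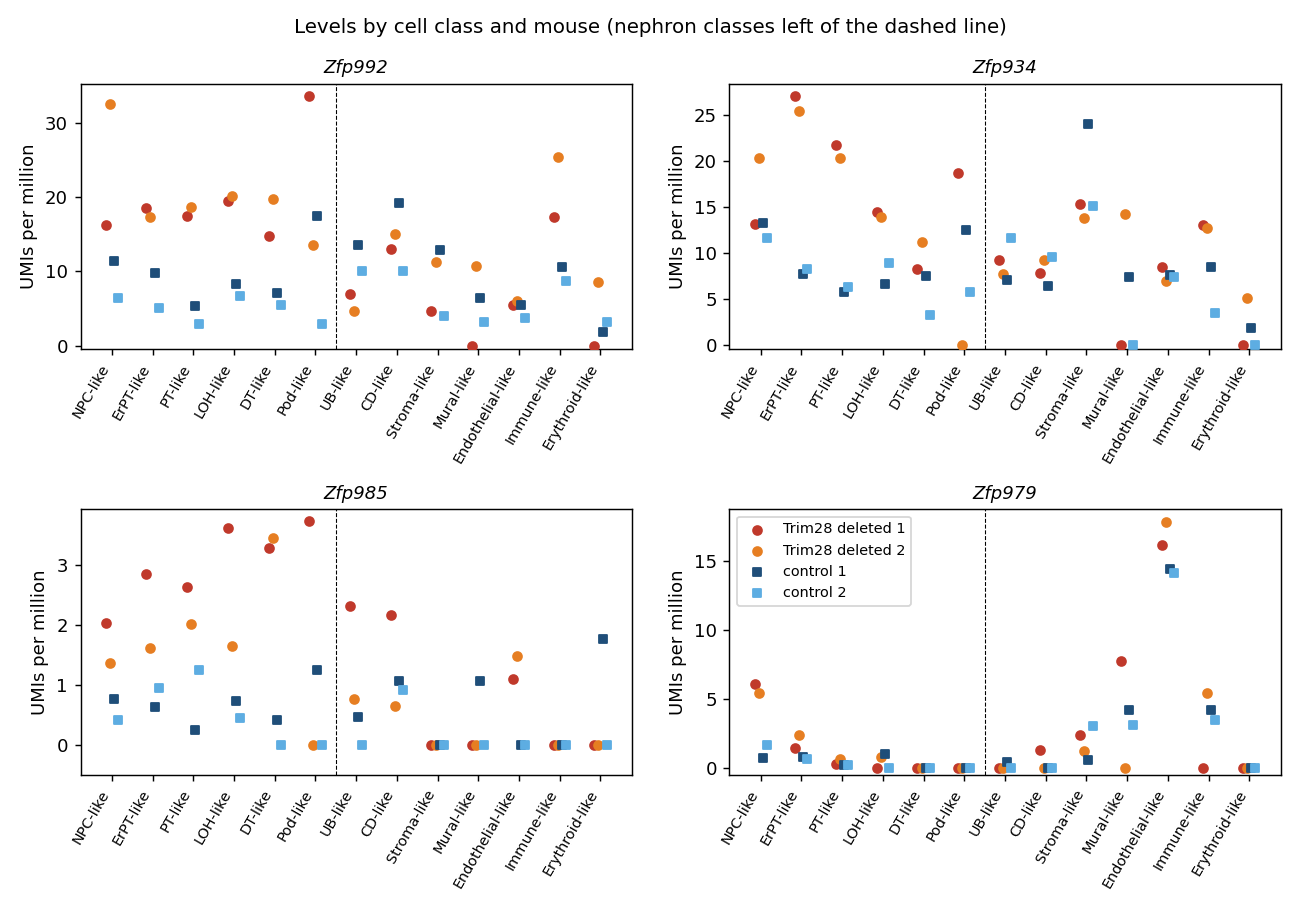
Level of Zfp992, Zfp934, Zfp985 and Zfp979 in CPM by named cell class and mouse. Zfp992 and Zfp934 separate the genotypes in PT-like and ErPT-like cells, and Zfp979 stands at 14.1 to 17.8 in endothelial-like cells of all 4 mice.

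Summed over the chromosome 4 group, levels were higher in the Trim28Δ/Δ mice in each named class of the lineage. The group was set apart after its lineage values were known, and these classes are parts of that lineage sum. Their recurrence is therefore a description, and how often other genes or sums separate the mice in single classes was not computed. The sum read 45.3 and 56.1 against 22.9 and 18.2 CPM in PT-like cells, 71.5 and 70.6 against 30.5 and 28.2 CPM in DT-like cells, and 56.9 and 79.4 against 47.6 and 33.3 CPM in NPC-like cells. In a cluster of cycling lineage cells, led by Ube2c and Cenpf and left unnamed, it read 51.5 and 62.6 against 30.7 and 23.7 CPM. The ratio of the genotype means lay between 1.58 and 2.47 in the 6 nephron classes, with no overlap between the genotypes in any of them. In the 7 other classes it lay between 0.761 and 1.47, and the genotypes did not overlap in 2, endothelial-like and immune-like cells. In UB-like cells, the epithelium next to the progenitors, the sums were 34.6 and 19.2 against 44.1 and 26.7 CPM. For the 45 members outside the group the ratio was 1.02 to 1.24 in the nephron classes. Their sum too was higher in both Trim28Δ/Δ mice than in both controls in 4 of the 6 nephron classes and 2 of the 7 others. Without Zfp992, the chromosome 4 sum overlapped between the genotypes in Pod-like cells (22.4 and 61.2 against 31.2 and 31.3 CPM). It did not overlap in CD-like cells (26.8 and 26.2 against 22.5 and 17.8 CPM).

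The comparison with related genes places these counts. Of the other genes with a Zfp number, 283 of 304 were tested in the lineage and 6 were called, 5 of them upwards (1.77%), with a median log2 change of -0.08 beside 0.11 for the Zfp9xx genes without Zfp990. Of 20 genes of the TRIM28 pathway, which include Setdb1, the heterochromatin protein genes Cbx1, Cbx3 and Cbx5, and the NuRD subunits Chd3, Chd4 and Hdac1, only Trim28 itself was called. Within the span of the chromosome 4 group, 12 further genes are annotated in the matrix. The 3 of them that were tested all had values above 0, and Gm13212 was called.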

How the data were processed

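The single-cell gene expression library (Chromium 3′ v3.1) and the multiplexing library of 1 pool were used. The authors deposited counts of UMIs for 32285 genes and 12 tags in all 3921239 barcodes, made with Cell Ranger 6.0.0 per the submitters' processing notes, which name GRCm38, without normalization or selection of cells. The order-of-magnitude rule (24000 expected cells, a minimum of 6891 UMIs) kept 21385 barcodes, and the study's filter (200 or more genes, 10% or less mitochondrial UMIs) kept 19272. HTODemux in Seurat 5.3.0 (quantile 0.99) assigned 7363 cells to the 4 tags with a named mouse. Doublets were taken to be the 4721 cells positive for more than 1 tag and left out, and 2680 cells without a call and 4508 cells of tags with no named mouse were not used. After SCTransform (sctransform 0.4.2, 3000 variable genes, 0 of them members), 30 principal components and Louvain clustering at a resolution of 0.8 followed. Clusters were named from marker lists, with thresholds that were set after the clusters were seen. The study named cells by projection onto an atlas, so classes can differ from its own.

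Counts were summed per mouse, filtered by filterByExpr, scaled by TMM and tested with edgeR 4.0.16 in R 4.3.3. CPM are UMIs in 1000000 after that scaling. A transcript gives its 3′ end only, so levels were not divided by length. The SE is the log2 change over the square root of F. DESeq2 1.42.0 was an alternative. Both were checked on simulated data. The members and lists were chosen with earlier results of these data known. By rule, every called member and the 10 most abundant were named, and any other member named was picked later, once its values were known. Protein sequences were not used here. The 6 bulk samples were not analysed here.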

Additional observations from a re-analysis of the deposited data

Results flagged for a closer look

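The change of Zfp992 between genotypes differed between the nephron lineage and the other compartments by 1.34 on the log2 scale in the test of the difference itself (adjusted p = 0.0498, edgeR, n = 2 mice per genotype). Both Trim28Δ/Δ mice stood above both controls in the lineage, and the genotypes overlapped outside it. Over the alternatives other than leaving out a mouse, the adjusted p of this difference lay between 0.00425 and 0.285.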

How the results depend on the processing

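The counts of members called depended on the mice and on the filter. In the lineage 3 members were called (4.03% of all genes), and this became 0 to 13 in the fits without 1 mouse. It was 0 without either Trim28Δ/Δ mouse (0.705% and 0.999% of all genes), and 11 and 13 without a Trim28f/f mouse (25% and 33.7%). It was 8 with no filter beyond 1 count (10.2%), 1 with equal cell numbers per cluster (0.473%) and 0 without PT-like cells (0.36%), an alternative added after the cell shares were seen. DESeq2 called 4 (7.06%). The interaction, 1 member, was 0 with RLE size factors, DESeq2, a resolution of 0.4 or 1.2, named clusters only, equal cell numbers or no PT-like cells, and 2 with no filter, and 0 to 2 without single mice, while the share of all genes called lay between 0.0578% and 5.9%. NPC-like cells, with 0, had 1 with no filter (2.37%) and 0 to 3 without single mice (0.032% to 11.6%). PT-like cells, with 2, had 4 with no filter (3.02%), 1 at a resolution of 1.2 (0.499%) and 1 without Scrublet doublets (0.446%), and 0 to 5 without single mice (0.0977% to 13.1%). At least 1 nephron class, with 2, became 5 with no filter, 1 without Scrublet doublets and 0 to 9 without single mice. Over the 6 nephron classes, the share of all genes called was 0.275% to 1.1% in the main fits. It was 0.709% to 3.02% with no filter and 0.248% to 0.878% without Scrublet doublets. Without single mice this share varied widely too, as given above for NPC-like and PT-like cells, so the rise in that count was not particular to the members. The other compartments stayed at 0 in the alternatives that keep all mice, where 0% to 1.45% of all genes were called. In most of these no gene at all was called, so 0 was the only possible count. The causes were not tested. Without 1 mouse, the lone mouse of a genotype is assumed to vary like the other pair. The log2 changes in the lineage lay at 0.94 to 1.22 for Zfp934, 1.92 to 2.30 for Zfp985 and 1.38 to 1.51 for Zfp992 over the alternatives that keep all mice, and at 1.04 to 1.12, 1.85 to 2.35 and 1.16 to 1.83 without single mice. The value of Zfp992 was 1.83 without the first and 1.16 without the second Trim28f/f mouse. No paired analysis was possible because the mice of the 2 genotypes share no number that ties them and the bulk samples were not analysed here.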
